A study of Mus musculus with 6 samples.

Results

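Collagens and the genes that build and remodel the extracellular matrix were followed in livers of mice on a high-fat diet, against livers of mice on a control diet. The members were taken by name: probe sets that both array designs hold and that the platform annotation gives to exactly 1 gene, whose symbol begins with Col and a digit, Mmp and a digit, Timp, Adamts, Lox, Lama, Lamb or Lamc, or is Fn1, Dcn, Lum, Sparc or Ccn2. This gave 137 probe sets of 86 genes, out of 22626 shared probe sets. Symbols that begin with Adamts or Lox also take in the ADAMTS-like and lysyl oxidase-like genes. Of the 86 genes, 46 had 1 member probe set and 40 had 2 or more, up to 6.

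All mice were C57BL/6J, an inbred strain much used in studies of diet-induced obesity, and were assigned at random to the high-fat diet (HFC in the design text, HF in the sample names) or the control diet (C). Frozen liver was profiled on Affymetrix arrays at weeks 2, 4 and 10, with 1 array for each diet and week and 6 arrays in all. Neither the sex and age of the mice, the make-up of the diets, nor the number of mice behind an array is given in the sources used here. A week therefore has no replicate of either diet. Week 4 was run on a larger array design than weeks 2 and 10, and scaled apart from them, so the diets were compared within each week.

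The extracellular matrix of the liver is thin. Type IV collagen, laminins and type XVIII collagen lie in and near the basement membranes of vessels and bile ducts and in the space beside the sinusoids, while fibrillar collagens of types I, III and V surround the portal tracts. Hepatic stellate cells and portal fibroblasts are the main producers of fibrillar collagen, lysyl oxidases cross-link it, matrix metalloproteinases (MMPs) and ADAMTS proteases cut matrix proteins, and the tissue inhibitors of metalloproteinases (TIMPs) block the cutting. In scarring liver, stellate cells turn into myofibroblasts and this balance moves toward deposition.

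Array signals here are deposited intensities put on a common log2 scale, with a floor at a signal of 155.3. The floor is the pooled 40th percentile, and below it a signal was taken as background. A difference in which 1 array lies at the floor is a bound, given as "at least". Means over the weeks and their errors take such bounds as they stand, and count a week with both arrays at the floor as 0. Diet was tested over the 3 weeks with limma on 14533 probe sets, with week as a block, and p-values were adjusted by Benjamini-Hochberg. No member passed at 0.05 (0 of 70 tested, against 0.0138% of all probe sets tested). The lowest adjusted p of any member was 0.993. At an unadjusted p under 0.05 stood 6 of the 70 (8.57%), against 4.03% of all probe sets tested. All differences below are therefore descriptions of 1 array per diet and week, and each standard error (SE) is limma's moderated one, which combines the probe set's own spread between weeks with that of all probe sets tested.

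Much of the matrix group lay at background in these livers. On all 6 arrays 44 of the 137 member probe sets were at the floor (32.1%), against 23.1% of all shared probe sets, and 30 were above it throughout (21.9%), against 42.6%. The other members were above it on some arrays, 40 of them on at least 3 arrays and 23 on 1 or 2. Above the floor lay 67, 40 and 75 members on the high-fat arrays of weeks 2, 4 and 10, against 69, 43 and 74 on the control arrays. The number was lowest at week 4 on both diets, as it was for all shared probe sets (50.4% on the high-fat and 51.7% on the control array). By gene, 19 of 86 had every member probe set at the floor on every array. These were Adamts4, Col10a1, Col15a1, Col17a1, Col22a1, Col2a1, Col4a4, Col9a2, Col9a3, Lama1, Lamb2, Mmp10, Mmp11, Mmp12, Mmp13, Mmp1a, Mmp1b, Mmp20 and Mmp7. They include collagens best known from cartilage and epithelium and several inducible MMPs. At least 1 probe set was above the floor on 3 or more arrays for 54 genes, and 13 genes reached it on 1 or 2 arrays at most, among them Col5a2 and Lamb1.

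Counts past 1.5-fold were small at weeks 2 and 4 and larger at week 10. At week 4 only 40 and 43 members were above the floor on the high-fat and control arrays, so more differences were set to 0 there. At week 2, 10 members were at least 1.5-fold higher on the high-fat array (7.3%, against 5.0% of all shared probe sets) and 9 lower (6.57%, against 7.2%). On the deposited scale, where every week 2 difference shifts by -0.67 because the control array of that week was scaled higher, they were 2 and 48. Shares over all probe sets are given for the main scale and floor alone, here and below. At week 4, 4 were higher (2.92%, against 3.03%) and 4 lower (2.92%, against 4.77%). At week 10, 18 were higher (13.1%, against 10.4%) and 10 lower (7.3%, against 9.8%). All 6 shares lay within 3 percentage points of those over all probe sets. Both count probe sets at the floor on all arrays, which cannot pass 1.5-fold. These were 32.1% of the members against 23.1% of all, so the shares are not of equally measurable sets. In 7 of the 10 higher members of week 2 and 7 of the 18 of week 10 the control array was at the floor, so their size is a bound. Among the 30 members above the floor on every array, the median log2 difference was -0.12, -0.19 and 0.06 at weeks 2, 4 and 10, against -0.01, -0.06 and -0.01 over 9636 probe sets. With a floor for each array, chosen after seeing the data, week 2 had 5 members higher and 7 lower, week 4 6 and 11, and week 10 13 and 9. The low counts of week 4 thus depend on the common floor.

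**Figure D1:**
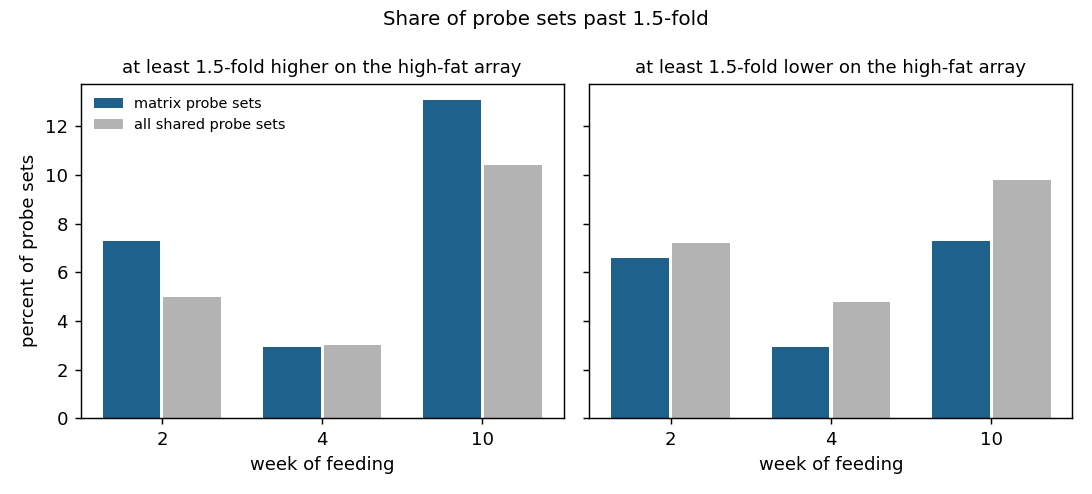
Percent of probe sets past 1.5-fold between the diets at weeks 2, 4 and 10, higher (left) or lower (right) on the high-fat array, as blue bars for the 137 matrix probe sets and grey bars for all 22626 shared probe sets. The highest matrix bar is that of higher probe sets at week 10, at 13.1% beside 10.4%.

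Few members kept 1 sign. Higher on the high-fat array at all 3 weeks were 4 members (2.92%, against 5.29% of all shared probe sets), 1 each of Col3a1 and Col4a2 and both of Col6a2, and on the deposited scale 1 member was so. Lower at all 3 weeks were 10 members (7.3%, against 7.5%), 1 probe set each of Adamts1, Ccn2, Col13a1, Fn1, Lum, Mmp14, Mmp19, Mmp2, Mmp24 and Timp2. Where 2 or more probe sets of a gene were above the floor on both arrays of a week, they had the same sign for 5 of 10 genes at week 2, 6 of 10 at week 4 and 7 of 12 at week 10. The median distance between the probe sets of a gene was 0.42, 0.23 and 0.38 on the log2 scale, and the widest 1.01, 0.71 and 1.53. A value on 1 probe set therefore need not hold for its gene.

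**Figure D2:**
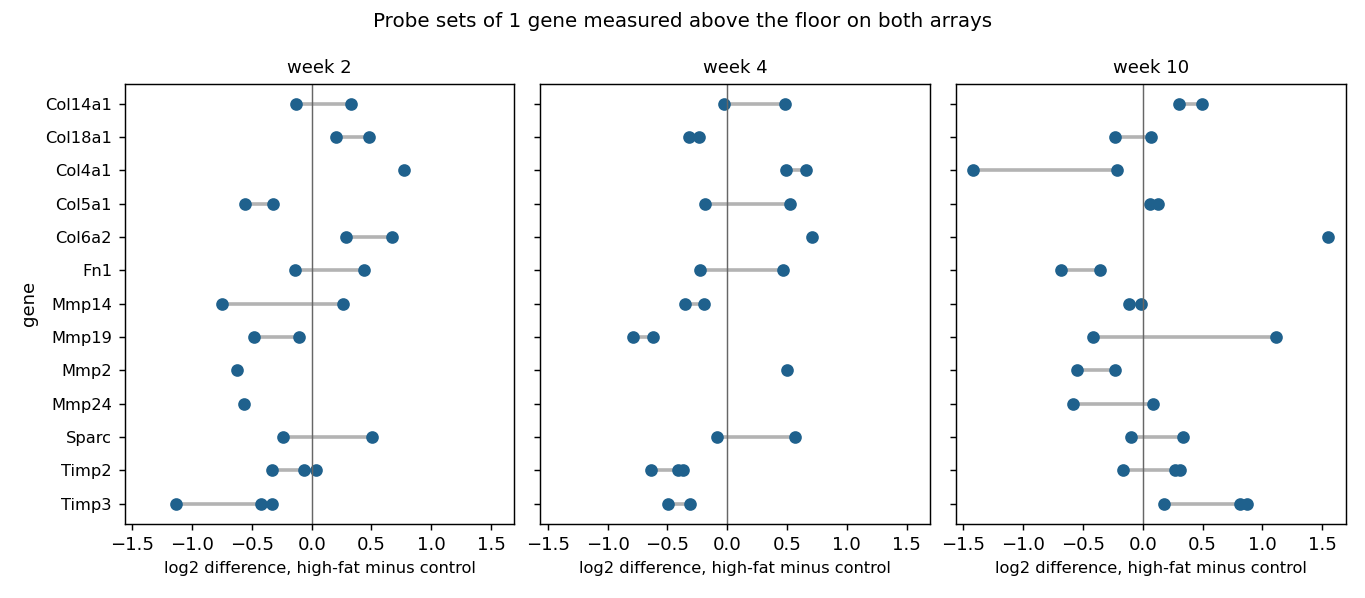
Log2 differences (high-fat minus control) of the probe sets of each matrix gene with 2 or more probe sets above the floor on both arrays, at weeks 2, 4 and 10, with a grey line joining the probe sets of a gene. Points of Fn1 and Sparc lie on both sides of 0 at weeks 2 and 4, and those of Mmp19 lie 1.53 apart at week 10.

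The arrays differ in quality. The 3'/5' signal ratio of a transcript is a sign of RNA integrity. For Gapdh it was 1.01, 0.814 and 0.832 on the high-fat arrays of weeks 2, 4 and 10, against 0.783, 0.82 and 0.906 on the control arrays, and for beta-actin 1.61, 2.35 and 1.17, against 1.2, 2.15 and 1.73. For pyruvate carboxylase it was 9.64, 7.78 and 2.39 on the high-fat arrays of weeks 2, 4 and 10, against 3.83, 4.26 and 4.01 on the control arrays. At weeks 2 and 4 the last 2 were greater on the high-fat diet, and at week 10 smaller. On spiked-in controls the week 10 control array differed from the rest, with a deposited bioD signal of 19736 against 4271 to 7858 on the other arrays. Their part in the differences was not tested. Mean differences without week 10 are given for some genes only, and other means can lean on that week too.

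Among the fibrillar collagens, 9 genes with 17 probe sets, Col3a1 was the gene higher on the high-fat array every week. It encodes type III collagen, which forms the fine reticular fibres of liver. Its main probe set had signals of 460.2, 2532 and 933.5 on the high-fat arrays of weeks 2, 4 and 10, against 344, 1530 and 468 on the control arrays. The high-fat array was the higher of the pair each week, while the diets overlap across weeks, both arrays of week 4 reading above the other 4. The log2 differences were 0.42, 0.73 and 1.0, with a mean of 0.71 (SE 0.224, 3 arrays per diet, limma adjusted p = 0.993), and the mean without week 10 was 0.57. A second Col3a1 probe set lay at the floor on 5 arrays and at 188.5 on the control array of week 10.

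The promoter window of Col3a1 is printed because this gene was the fibrillar collagen higher at all 3 weeks. RefSeq on GRCm38.p6 places it at chr1:45311288-45311587, plus strand, from 250 bases before to 50 after the gene's start, and the capitals mark the letters TATAAA, at position -117 from the start.
Col3a1: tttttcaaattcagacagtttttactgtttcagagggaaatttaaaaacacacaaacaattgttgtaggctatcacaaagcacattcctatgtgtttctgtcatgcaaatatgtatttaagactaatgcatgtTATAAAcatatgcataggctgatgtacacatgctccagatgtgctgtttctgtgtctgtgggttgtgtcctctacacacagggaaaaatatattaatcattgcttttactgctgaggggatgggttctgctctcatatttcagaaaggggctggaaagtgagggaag
TATAAA on either strand was found in the windows of 15 of the 54 member genes that RefSeq's table holds, or 24.6% of their 61 windows, against 13.62% of 32851 windows of all genes. Several of these genes are MMPs that lie near one another on chr9, so the windows are not independent. A match of letters is no more than a description of the window.

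Type I collagen, the major fibre of scar tissue, showed smaller differences. Col1a2 had 794, 779 and 964 on the high-fat arrays and 859, 645 and 740.5 on the control arrays on the probe set above the floor throughout. Its differences were -0.11, 0.27 and 0.38, with a mean of 0.18 (SE 0.222, limma adjusted p = 0.996), within the spread between weeks. The other Col1a2 probe set was at least 1.59-fold higher at week 10 (247 on the high-fat array and the floor on the control array) but -0.24, also a bound, at week 2. Col1a1 was seen on 3 arrays by 1 of its probe sets, with 173 at week 2 on the high-fat diet, against 160.5 at week 2 and 220.1 at week 10 on the control diet. The chains that pair in type I collagen gave no common direction at week 10, where that Col1a1 probe set was -0.50 (bound).

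The minor fibrillar collagens, which set fibre diameter or belong to cartilage, also went both ways. The 2 Col5a1 probe sets above the floor on all arrays had -0.32, 0.52 and 0.06, and -0.56, -0.19 and 0.13. Col5a2 was above the floor on the high-fat arrays of weeks 2 and 4 alone, at 176 and 230.3, with every control array at the floor. Col11a1 and Col11a2 were at least 2.1-fold and 1.74-fold higher at week 10, the first against a control array at the floor. In all, 4 of the 17 probe sets were at least 1.5-fold higher at week 10 and none lower, against 10.4% and 9.8% of all shared probe sets.

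**Figure D3:**
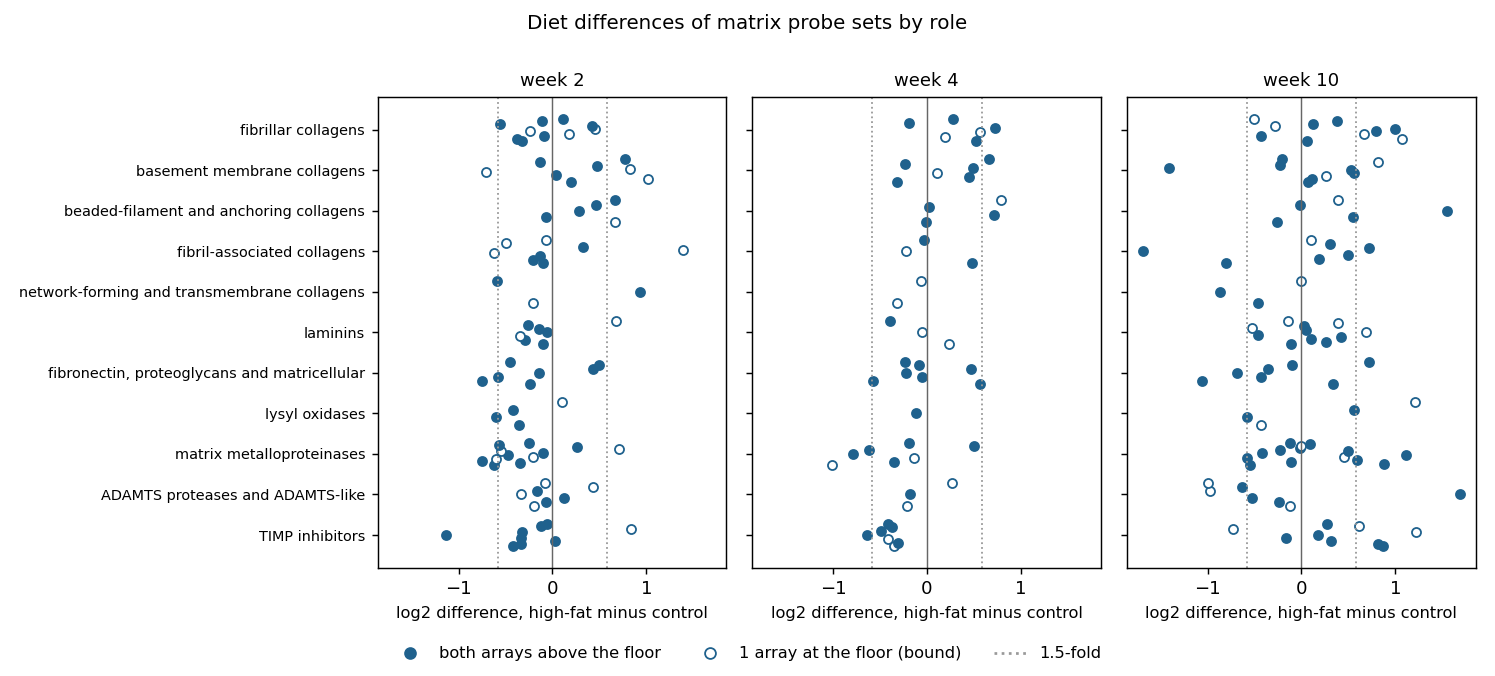
Log2 differences (high-fat minus control) of the matrix probe sets at weeks 2, 4 and 10, in rows by role, with filled points where both arrays were above the floor, open points where 1 was at the floor (bounds), and dotted lines at 1.5-fold. Probe sets with both arrays at the floor are left out. Points of most roles lie on both sides of 0 at each week. The fibrillar collagens, the laminins, and the beaded-filament and anchoring collagens have no point past the lower dotted line.

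Col6a2 was the member with the largest mean difference upward. It encodes a chain of type VI collagen, which forms beaded filaments between fibres and basement membranes. On its brighter probe set the signals were 475, 280.0 and 737 on the high-fat arrays of weeks 2, 4 and 10, against 389.9, 171 and 252 on the control arrays. The high-fat array was higher at each week, and most so at week 10. Its log2 differences were 0.28, 0.71 and 1.55, with a mean of 0.85 (SE 0.271, limma adjusted p = 0.993), and the mean without week 10 was 0.50. The second Col6a2 probe set had 349.9, 268.5 and 204 on the high-fat diet and 219.8 at week 2 on the control diet, whose arrays of weeks 4 and 10 were at the floor. That gave 0.67, at least 0.79 and at least 0.39, so both probe sets had the same sign at every week. The suffix of the brighter one (x) marks probes that can match other transcripts as well.

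The partner chains of type VI collagen did not show that course. Col6a1 had 515, 266 and 360.4 on the high-fat arrays and 374, 263 and 364 on the control arrays, with differences of 0.46, 0.02 and -0.01. Col6a3 had -0.07, -0.01 and 0.55. Their means were 0.16 (SE 0.222) and 0.16 (SE 0.23), neither past the threshold (limma adjusted p = 0.996 for both). Col7a1, the anchoring fibril of skin, was at least 0.67 at week 2 and -0.26 at week 10.

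**Figure D4:**
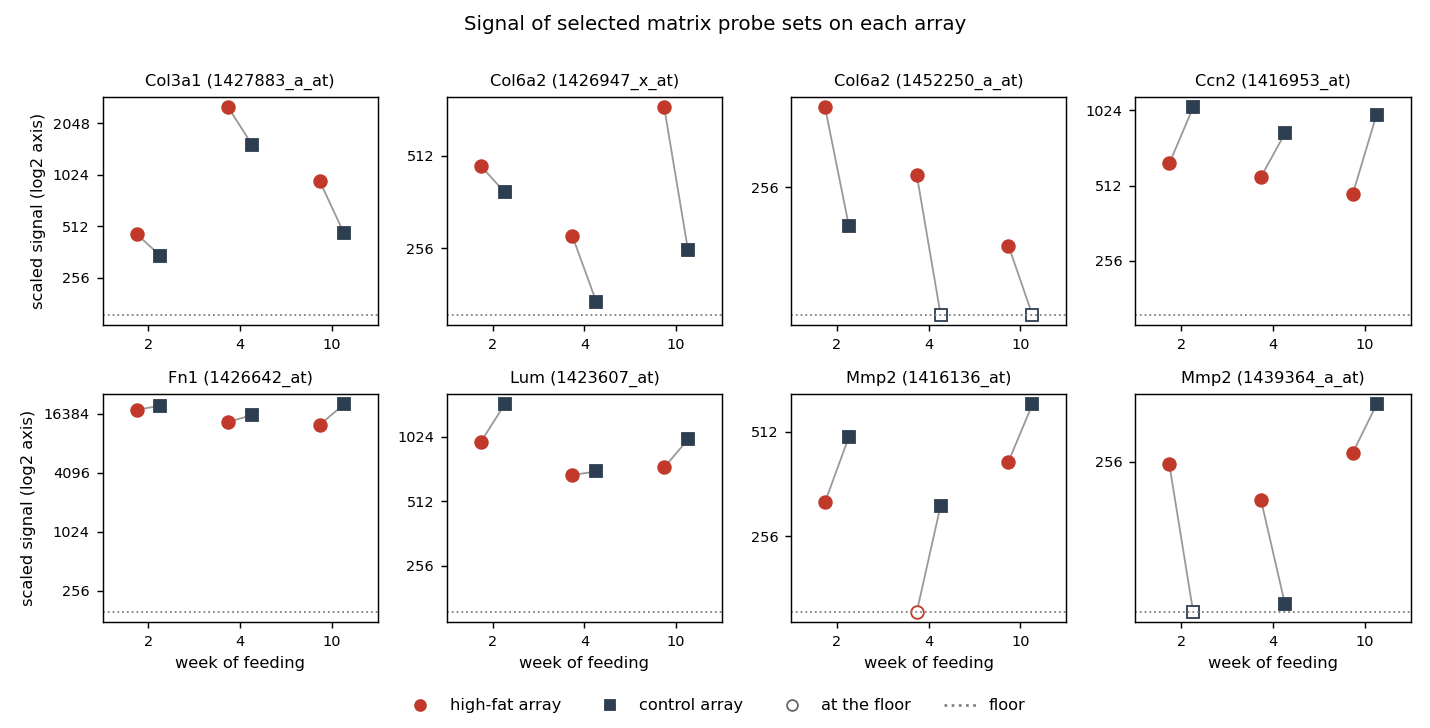
Scaled signal on a log2 axis of 8 matrix probe sets at weeks 2, 4 and 10, with red circles for high-fat arrays, dark squares for control arrays, open symbols at the floor and a dotted line for the floor. Col3a1 and both Col6a2 probe sets lie higher on the high-fat array every week, Ccn2, Lum, the first Fn1 and the first Mmp2 probe set lie lower, and the second Mmp2 probe set lies higher at weeks 2 and 4.

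Basement membrane collagens, 8 genes with 12 probe sets, include Col4a1, a chain of the type IV network. Its main probe set had 1135, 964 and 553 on the high-fat arrays of weeks 2, 4 and 10, against 664, 610.1 and 641 on the control arrays. The high-fat array was 1.71-fold higher at week 2 and 1.58-fold higher at week 4, and 1.16-fold lower at week 10. Its mean was 0.41 (SE 0.255, limma adjusted p = 0.993). The second Col4a1 probe set also had its sign turned at week 10, with at least 0.82, 0.49 and -1.42. Col4a2, the chain that pairs with it, had 0.04, 0.44 and 0.56 and was the higher on the high-fat array every week (mean 0.35, SE 0.223, adjusted p = 0.993). At week 10 Col4a1 and Col4a2 thus differed between the diets in opposite directions.

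Col4a1 and Col4a2 lie head to head on 1 chromosome and their start sites share a promoter, so the stretch that both RefSeq windows hold is printed with the 20 bases before it. It lies at chr8:11312757-11312854 on GRCm38.p6, plus strand. The shared part runs to the end of both windows, past each gene's start, so it holds transcribed bases and is not the promoter alone. The 20 bases before it are in the Col4a2 window alone, and they hold all but the last letter of the CCAAT in capitals.
Col4a2 (stretch shared with Col4a1 and 20 bases before it): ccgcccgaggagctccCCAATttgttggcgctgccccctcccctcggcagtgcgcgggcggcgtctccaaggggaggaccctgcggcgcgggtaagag
CCAAT on either strand was found in 19 of the 61 member windows (31.1%), against 37.41% of all windows.

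Col18a1, whose product yields endostatin and is made in quantity by liver cells, was above the floor on all arrays on 2 probe sets. One had 9177, 6383 and 7749 on the high-fat arrays, against 7991, 7971 and 7389.6 on the control arrays. Differences were 0.20, -0.32 and 0.07 on it and 0.48, -0.24 and -0.23 on the other, with means of -0.02 (SE 0.223) and 0.01 (SE 0.237). Neither probe set differed between the diets beyond the spread between weeks. Col4a3, Col4a5 and Col4a6 lay at the floor on both arrays of week 4 on their better probe sets. Col4a6 was at least 2.02-fold higher at week 2 (314 on the high-fat array) and 0.11 at week 10. Col4a3 was at least 1.75-fold higher at week 10, and Col4a5 had -0.71 (bound) at week 2 and 0.53 at week 10. Laminins, the other main protein of basement membranes, were 10 genes with 16 probe sets, of which 6 were tested and none passed. Past 1.5-fold were Lamc3 at week 2 and Lama2 at week 10, both higher against a control array at the floor, while another Lamc3 probe set had -0.06 at week 2. Lama5 had -0.14, -0.40 and 0.04 on its brighter probe set and -0.52 (bound) at week 10 on the other, Lama4 -0.35 (bound) at week 2 and 0.42 at week 10, Lamc1 -0.30, 0.24 (bound) and 0.26, and Lamb3 -0.10 and -0.11 at weeks 2 and 10.

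Fibril-associated collagens, which coat fibres, held the widest single difference downward. Col12a1 had 348 at week 10 on the high-fat array and the floor at weeks 2 and 4, against 240.0, the floor and 1124 on the control arrays of weeks 2, 4 and 10. At week 10 it was 3.23-fold lower on the high-fat array, and the mean was -0.77 (SE 0.31, limma adjusted p = 0.993). Without week 10 that mean was -0.31, from a bound at week 2 and a 0 at week 4, where both arrays were at the floor. The 2 Col14a1 probe sets had -0.13, 0.48 and 0.49, and 0.33, -0.03 and 0.30, so the high-fat array of week 10 was the higher on both. Col16a1 was at least 2.62-fold higher at week 2 and 1.65-fold higher at week 10, with -0.22 (bound) at week 4, and Col9a1 was 1.75-fold lower at week 10 on 1 probe set, with 0.10 (bound) on another. Among transmembrane collagens, Col13a1 was lower at each week, with 181 and 181 on the high-fat arrays of weeks 2 and 10 and the floor at week 4, against 273, 162 and 331 on the control arrays of weeks 2, 4 and 10. Its mean was -0.51 (SE 0.238, adjusted p = 0.993). Col25a1 was 1.92-fold higher at week 2 and -0.46 at week 10.

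Ccn2 was the member with the lowest mean difference among probe sets above the floor on all arrays. It encodes connective tissue growth factor, a secreted matricellular protein that TGF-beta and the YAP co-activator induce and that favours matrix production. Signals were 628, 555 and 473 on the high-fat arrays of weeks 2, 4 and 10, against 1055, 828 and 986 on the control arrays. All 3 high-fat values lay below all 3 control values, though this sets arrays of different weeks and designs side by side. The gene has no second member probe set to compare. The log2 differences were -0.75, -0.58 and -1.06, with a mean of -0.80 (SE 0.221, 3 arrays per diet, limma adjusted p = 0.993). The mean was -0.82 without week 2, -0.90 without week 4 and -0.66 without week 10. Ccn1, a relative of Ccn2 with similar inducers, had -0.12, -0.44 and -0.44 on 1 probe set and -0.35, -0.39 and 0.00 on another.

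Fibronectin, which hepatocytes secrete into plasma and which also forms fibrils in the matrix, gave different answers on its 2 probe sets. The brighter Fn1 probe set had 17891, 13492 and 12634 on the high-fat arrays, against 19725, 15769 and 20290.4 on the control arrays, with differences of -0.14, -0.22 and -0.68. The dimmer one had 569.8, 591 and 418, against 422, 427 and 535, with 0.43, 0.47 and -0.36. Both were lower on the high-fat diet at week 10 and they had opposite signs before, and their means were -0.35 (SE 0.225) and 0.18 (SE 0.245).

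The small leucine-rich proteoglycans Dcn and Lum bind collagen fibres and space them. Decorin (Dcn) had 6775, 8366 and 6416 on the high-fat arrays of weeks 2, 4 and 10, against 9278, 9808 and 3894 on the control arrays. The control array of week 10 was thus the low one, and the differences were -0.45, -0.23 and 0.72, with a mean of 0.01 (SE 0.268, limma adjusted p = 1.0). Lumican (Lum) had 968, 679 and 736 on the high-fat diet and 1450.3, 705 and 995.5 on the control diet. It was lower on the high-fat array every week, by little at week 4, with a mean of -0.36 (SE 0.223, adjusted p = 0.993). Sparc, a collagen-binding matricellular protein, had -0.24, 0.57 and 0.34 on 1 probe set and 0.50, -0.09 and -0.10 on the other, so its probe sets had opposite signs at every week.

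Lysyl oxidases, which start collagen cross-linking, were 4 genes with 7 probe sets, and none of the 4 tested passed. Lox had 261 at week 2 on the high-fat array and the floor later, against 334 at week 2 and 209 at week 10 on the control arrays. Loxl1 had 167, 189 and 358 on the high-fat arrays of weeks 2, 4 and 10, against 204 at week 4 and the floor at weeks 2 and 10 on the control arrays. It was at least 2.31-fold higher at week 10, and its mean of 0.40 (SE 0.282) came from that week, since without it the mean was -0.01. Loxl3 was 1.51-fold lower at week 2 and 1.49-fold lower at week 10, with both arrays at the floor at week 4.

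MMPs were the largest group, 18 genes with 25 probe sets, and 8 of the genes had every probe set at the floor on all arrays. Mmp13 and Mmp12 belong to these, the main interstitial collagenase of rodents and the macrophage elastase. None of the 11 probe sets tested passed. Past 1.5-fold, 1 of the 25 was higher and 3 were lower at week 2 (against 5.0% and 7.2% of all shared probe sets), 0 and 3 at week 4 (against 3.03% and 4.77%), and 3 and 0 at week 10 (against 10.4% and 9.8%). Counts this small were not read further.

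In 8 of the 61 promoter windows of member genes the letters TGACTCA, the AP-1 site, were found on either strand (13.1%, against 5.2% of all windows). They belong to Col6a1, Mmp10, Mmp12, Mmp13, Mmp1a, Mmp1b, Mmp3 and Mmp7. The 7 MMP genes lie near one another on chr9, so their windows are not independent and the share need not describe matrix genes at large. AP-1 is the Fos and Jun factor through which inflammatory signals are known to induce several MMPs. The stretches are printed because 6 of these 7 MMP genes had no signal above the floor on any array, Mmp3 being the exception on 2 arrays. They come from RefSeq on GRCm38.p6, are written in each gene's own direction, and the capitals mark the letters or their reverse complement TGAGTCA.
Mmp1a, chr9:7464053-7464089, plus strand: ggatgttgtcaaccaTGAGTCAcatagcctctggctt
Mmp1b, chr9:7388098-7388134, minus strand: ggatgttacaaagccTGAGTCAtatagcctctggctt
Mmp3, chr9:7445761-7445797, plus strand: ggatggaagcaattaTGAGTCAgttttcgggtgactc
Mmp7, chr9:7692012-7692048, plus strand: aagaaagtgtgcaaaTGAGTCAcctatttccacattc
Mmp10, chr9:7502264-7502300, plus strand: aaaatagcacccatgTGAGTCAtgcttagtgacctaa
Mmp12, chr9:7347315-7347351, plus strand: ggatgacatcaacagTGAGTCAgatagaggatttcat
Mmp13, chr9:7272464-7272500, plus strand: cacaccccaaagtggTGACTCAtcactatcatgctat
Mmp3 was above the floor at week 10 on the high-fat array, at 213, and at week 2 on the control array, at 179.

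Mmp2 and Mmp14 work together, since the membrane-bound enzyme of Mmp14 activates the gelatinase of Mmp2. On 1 Mmp2 probe set the signals were 322, the floor and 419.8 on the high-fat arrays of weeks 2, 4 and 10, against 495, 314 and 613 on the control arrays. It was lower on the high-fat array every week, by 0.62, at least 1.02 and 0.55 on the log2 scale, with a mean of -0.73 (SE 0.221, limma adjusted p = 0.993). The other Mmp2 probe set had at least 0.71, then 0.50 and -0.23, the opposite sign at weeks 2 and 4, so no direction can be given for the gene. Mmp14 likewise had -0.75, -0.35 and -0.11 on its dimmer probe set and 0.26, -0.19 and -0.01 on its brighter one.

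Mmp19, a broadly expressed MMP, differed between its probe sets at week 10. One had 177, 169 and 511 on the high-fat arrays, against 247, 292 and 236 on the control arrays, with -0.48, -0.79 and 1.11. The other had 245, 195 and 204, against 264, 299.9 and 272, and was lower at each week (-0.11, -0.62 and -0.42). At weeks 2 and 4 both were lower on the high-fat diet. Mmp9, a gelatinase of neutrophils and macrophages, had 207 and 361 at weeks 2 and 10 on the high-fat diet, against 262 and 196 on the control diet, with both arrays of week 4 at the floor. It was 1.84-fold higher at week 10 after -0.34 at week 2. Mmp24 was lower at each week on 1 probe set (at least 0.60, at least 0.14 and 0.58 lower on the log2 scale), with -0.57 at week 2 and 0.09 at week 10 on the other, and Mmp8, a neutrophil collagenase, had -0.25 and -0.12 at those weeks.

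ADAMTS proteases, 9 genes with 11 probe sets with their relatives, had 5 tested probe sets and none that passed. Adamts1, which cuts aggregating proteoglycans, had 274, 286 and 311 on the high-fat arrays of weeks 2, 4 and 10, against 306, 325 and 481.5 on the control arrays. It was lower on the high-fat array every week, with a mean of -0.33 (SE 0.222, limma adjusted p = 0.993), and the mean without week 10 was -0.17. Adamts10, which works on fibrillin microfibrils, had 441 and 757 at weeks 2 and 10 on the high-fat diet and the floor at week 4, against 406, 180.5 and 235 at weeks 2, 4 and 10 on the control diet. At week 10 it was 3.22-fold higher, the largest upward difference of any member above the floor on both arrays. The mean was 0.53 (SE 0.342), and -0.05 without week 10. At that week Adamts5 and Adamtsl4 were at least 1.97-fold and 2.0-fold lower, with the high-fat array at the floor.

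The TIMP inhibitors, 4 genes with 13 probe sets, had members whose sign at week 10 was opposite to that of the earlier weeks. Timp3, which is held in the matrix, had 3 probe sets above the floor on at least 5 arrays. The first had 266 and 491.5 at weeks 2 and 10 on the high-fat diet, against 356 and 269 on the control diet. On the second the signals were 281, 249 and 403 on the high-fat arrays, against 354, 309 and 229 on the control arrays. The third had 332.5, 325 and 185 against 729.7, 458 and 164. All 3 were lower on the high-fat diet at weeks 2 and 4 (by 0.33 to 1.13 at week 2) and higher at week 10, by 0.87, 0.82 and 0.17 on the log2 scale. Their mean differences over the weeks were 0.03, 0.06 and -0.48, none past the threshold.

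Timp1, the inhibitor most strongly induced in liver injury, was near background. It had 159 and 238 at weeks 2 and 10 on the high-fat arrays, against 173 at week 2 on the control array, with the floor on the others, so it was at least 1.53-fold higher at week 10. Timp4 had the same course, with 214 and 362 against 268 and the floor, and was at least 2.33-fold higher at week 10. Timp2, which also takes part in the activation of the Mmp2 product, was lower at week 4 on all 4 probe sets seen there, by 0.37 to 0.64 on the log2 scale, 1 of them a bound. At week 10 the same 4 gave 0.31, -0.17, at least 0.73 lower and 0.27.

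Within a diet, weeks 2 and 10 can be set against each other, since they share an array design. On the high-fat diet 23 members were at least 1.5-fold higher at week 10 than at week 2 (16.8%, against 14.7% of all shared probe sets) and 11 lower (8.03%, against 9.64%). On the control diet 13 were higher (9.49%, against 9.04%) and 9 lower (6.57%, against 7.24%), but 6 and 41 on the deposited scale, where the week 2 array of that diet was scaled higher. On the centred scale these shares lay close to those of all probe sets, and both again count probe sets at the floor on all arrays. Sparc was lower at week 10 on both diets on 1 probe set (-1.29 on the high-fat and -1.86 on the control diet), and by less on the other (-0.65 and -0.05). Col3a1 was 1.02 higher on the high-fat and 0.44 higher on the control diet on the log2 scale. Dcn had -0.08 on the high-fat diet and -1.25 on the control diet, and Col6a2 0.63 and -0.63 on its brighter probe set but -0.78 and -0.50 (bound) on the other.

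Genes that act on collagen or receive matrix signals were taken from lists chosen with earlier results of these data known, and the 3 genes of each with the largest mean differences are named. Their counts stand beside shares over all probe sets of 10.4% past 1.5-fold upward and 9.8% downward at week 10, and 4.03% at an unadjusted p under 0.05. Of 21 tested probe sets for collagen maturation, 0 passed, 2 with an unadjusted p under 0.05, and at week 10 4 of 29 were at least 1.5-fold higher and 3 lower. Serpinh1, the collagen-specific chaperone HSP47, had 263, 381.5 and 449.6 on the high-fat arrays of weeks 2, 4 and 10, against the floor, 283 and the floor on the control arrays. Its other probe set had 461, 429.5 and 805, against 337, 408 and 343. The high-fat array was the higher at each week on both, with log2 differences of at least 0.76, then 0.43 and at least 1.53 on the first, and 0.45, 0.07 and 1.23 on the second (limma adjusted p = 0.993 for both). The collagen galactosyltransferase Colgalt1 had -0.62, -0.38 and -0.62 (bound) on 1 probe set and 0.45, -0.27 and -0.57 on the other, and the prolyl hydroxylase P3h1 -0.51, -0.85 and 0.16 on 1 and -0.44 at week 10 on the other.

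Of 31 tested probe sets for TGF-beta and PDGF signalling, the main inducers of stellate cell matrix, 0 passed and 3 had an unadjusted p under 0.05, and at week 10 5 of 48 lay past 1.5-fold upward and 7 downward. Smad7, an inhibitor of TGF-beta receptors that TGF-beta itself induces, had 573, 284 and 739.8 on the high-fat arrays, against 403.5, 158 and 298 on the control arrays. The high-fat array was the higher of each pair, by 0.51, 0.84 and 1.31 (mean 0.89, SE 0.237, limma adjusted p = 0.993). The ligand Pdgfc had -0.97, -0.19 and at least 1.42 lower on 1 probe set but 0.18, 0.33 and 0.04 on another, and Pdgfb 0.69, -0.04 (bound) and at least 1.31 on its better one. Tgfb1 had 0.10 and -0.41 at weeks 2 and 10, with both arrays of week 4 at the floor.

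Of 33 tested probe sets of integrins and collagen receptors 0 passed, with 4 at an unadjusted p under 0.05, and at week 10 9 of 62 lay past 1.5-fold upward and 9 downward. The fibronectin receptor chain Itga5 was lower at each week on 1 probe set (-0.50, at least 0.92 lower and at least 1.25 lower) and had 0.11 and 0.73 at weeks 2 and 10 on the other. The heparan sulfate proteoglycan Sdc1 had 1873, 1741 and 1942 on the high-fat arrays and 3728, 3835 and 2517 on the control arrays on the probe set with its largest mean difference (-0.99, -1.14 and -0.37). On its other 3 probe sets it was lower at weeks 4 and 10. The collagen receptor Ddr2 had -0.91 at week 2 and at least 0.88 lower at week 10. Matricellular and other matrix proteins (0 of 27 tested passed, none with an unadjusted p under 0.05, 4 of 56 higher and 4 lower at week 10) included Nid1, a linker of basement membranes, with -0.21, 0.91 and 0.97, and the plasma protein Vtn with -0.21, -0.76 and -0.17 on 1 probe set and 0.23, -0.73 and -0.18 on the other. Plasminogen and other matrix proteases (0 of 27 passed, 1 with an unadjusted p under 0.05, 4 of 34 higher and 2 lower at week 10) included the lysosomal protease Ctsl with -0.25, -0.67 and -0.57, Plg with -0.08, -0.71 and -0.29, and Adam17, whose probe sets had opposite signs at week 10. Vtn, Plg and Ctsl are bright, and other bright genes were lower at week 4 too. The 17 hepatocyte marker probe sets that never fell to background had a median of -0.91 there. Over all probe sets so detected it was -0.06. The brighter Fn1 probe set had -0.22. Whether the week 4 differences of Vtn, Plg and Ctsl follow signal brightness was not tested.

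Bulk liver RNA was measured, so fewer cells of a type and less RNA per cell cannot be told apart, and markers of the cells that make matrix were read on the same arrays. The tissue label held: hepatocyte albumin (Alb) read 24075 to 66733 on the high-fat arrays and 44816 to 94959 on the control arrays. Stellate and myofibroblast markers, 18 genes with 31 probe sets, had a summed signal of 7848, 8416 and 8248 on the high-fat arrays of weeks 2, 4 and 10, against 7726, 8180 and 7885 on the control arrays. Each sum, here and below, takes the brightest probe set of each gene and counts a value at the floor as the floor. Reln alone gave 2022 to 2943 of it. Past 1.5-fold, 2 of these 31 were higher and 1 lower at week 4 (against 3.03% and 4.77% of all probe sets), and 3 higher and 3 lower at week 10 (against 10.4% and 9.8%), with Cnn1 and Hand2 at the floor on every array. Reln, a marker of quiescent stellate cells, had 2652, 2943 and 2308 on the high-fat arrays, against 2132, 2712 and 2022 on the control arrays, and Acta2, the actin of myofibroblasts, 542, 448.5 and 956, against 713, 394 and 802. The 7 probe sets of the list above the floor on all arrays had median log2 differences of 0.28, 0.19 and -0.41. At week 10 Tcf21, Cygb, 1 of Tpm2 and 1 of Vim were lower (-0.55, -0.72, -0.41 and -0.82). Reln, Acta2 and another of Vim were higher (0.19, 0.25 and 0.73). Whether the number or state of stellate cells bears on Col3a1 or Col6a2 was not tested.

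Markers of other cell types were counted in the same way, beside the shares over all probe sets of 10.4% upward and 9.8% downward at week 10 and 4.77% downward at week 4. Macrophage and Kupffer cell markers had 12 of 24 probe sets past 1.5-fold upward and 1 downward at week 10. At week 2 they had 1 upward and 5 downward, and at week 4 2 and 1. Their summed signals were 23438, 37479 and 29787 on the high-fat arrays and 26584, 38079 and 18191 on the control arrays, with Itgam at the floor throughout. Endothelial markers had 7 of 28 higher and 3 lower at week 10, but 3 higher and 6 lower at week 2, and 2 and 2 at week 4. Their sums were 14733, 16436 and 18272 on the high-fat arrays and 17835, 18664 and 13463 on the control arrays, with Tie1 and Vwf at the floor. For both lists the control array of week 10 had the lowest sum of all 6 arrays, as Dcn had its lowest signal there. Hepatocyte markers had 17 of 18 probe sets past 1.5-fold downward at week 4, 1 at week 2 and 1 at week 10, and 0 upward at each week. Their sums were 362782, 270848 and 508741 on the high-fat arrays and 401428, 492136 and 659302 on the control arrays. Cholangiocyte markers (1 of 12 higher and 1 lower at week 10, sums of 1352 to 1490.0 on high-fat and 1387 to 1697 on control arrays, with Cftr, Epcam, Krt7 and Muc1 at the floor) and mesothelial markers (0 of 8 higher and 1 lower, sums of 932 to 1137 and 943 to 1173, with Msln and Wt1 at the floor) were close to background. No probe set of any of these lists passed limma over the 3 weeks. The part of these cells in the differences of the matrix genes was not tested.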

How the data were processed

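Livers were profiled on 6 arrays, 1 per diet and week, grouped by the titles. Per the labels' protocols, Trizol and a silica column were used to extract liver RNA, which was copied into biotinylated cRNA. What the authors deposited is a linear intensity for each probe set. The software that summarised the probes is not stated in the labels and headers. The mean deposited intensity without the top and bottom 2% was 500.0 to 500.2 on 5 arrays and 800.3 on the control array of week 2. The designs hold 45101 and 22690 probe sets. Without 64 control probe sets, 22626 shared ones remained, of which 20380 had 1 gene symbol, 691 several and 1555 none here.

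From these intensities log2 values were taken. Arrays were then centred by the median of those probe sets that all 6 detect above the floor, and values under the pooled 40th percentile were set to it. Diets were compared over 3 weeks by lmFit and eBayes of limma 3.58.1 (R 4.3.3), with week as a block, on probe sets above the floor on at least 3 arrays, with Benjamini-Hochberg adjustment at 0.05. P-values measure the spread of the diet difference between weeks, biological or technical, and the number of arrays limits the precision. Single weeks have counts past 1.5-fold and no test.

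Genes named are members past limma, members with 1 sign at all 3 weeks and 1.5-fold at 1, the 5 largest differences per direction and week above the floor on both arrays, a fixed set of 36 matrix genes where measured, and 3 genes of each list. Other genes were chosen after their values were seen. Members and lists were chosen with earlier results of these data known. Alternatives were the deposited scale, a floor at the 20th or the 60th percentile, quantile normalization, the brightest probe set per gene, 2-fold, no filter, no block, a trended and robust eBayes, loess, and dropping each week in turn. Promoter windows are RefSeq's (GRCm38.p6), which held 54 of 86 genes, without Ccn2. Figures were drawn with matplotlib 3.10.9.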

Additional observations from a re-analysis of the deposited data

Results flagged for a closer look

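The 3 probe sets below had opposite signs at 2 weeks with both differences past 1.5-fold, and the difference between the weeks was not tested, since each week has 1 array per diet. Timp2 had a log2 difference (high-fat minus control) of at least 0.84 at week 2, with the control array at the floor, and of -0.73 at week 10, with the high-fat array at the floor, on 1 of its probe sets. Col4a1 had at least 0.82 at week 2 and -1.42 at week 10 on its dimmer probe set, and its brighter one had the same signs. Mmp19 had 1.11 at week 10 and -0.79 at week 4 on 1 probe set, while the other was lower at both weeks.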

How the results depend on the processing

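No member passed limma in the main analysis or in any of its 11 alternatives, whose lowest adjusted p for a member was 0.255, for Mmp2 without week 10. Without a replicate block for week, 0 members passed as well, and 1 had an unadjusted p under 0.05. Counts of members past 1.5-fold moved with the floor and the scale. Shares over all probe sets are given for the main analysis alone, so whether all probe sets moved alike is not shown. With the values as deposited, where the control array of week 2 is scaled higher, week 2 had 2 higher and 48 lower members, week 4 9 and 7, 1 member was higher at all 3 weeks, and week 10 against week 2 had 7 lower on the high-fat diet and 6 higher and 41 lower on the control diet. At the 20th percentile floor week 2 had 24 higher and 17 lower members, week 4 16 and 22, week 10 25 lower, with 18 lower at all 3 weeks, 22 lower at week 10 than at week 2 on the high-fat diet, and 30 higher and 26 lower on the control diet. At the 60th, week 2 had 2 higher and 4 lower, week 4 2 and 0, week 10 5 and 3, with 2 higher and 4 lower at all 3 weeks, 7 and 4 for week 10 against week 2 on the high-fat diet, and 3 and 3 on the control diet. With the brightest probe set of each gene, 5 were higher at week 2, 2 lower at week 4 and 6 lower at all 3 weeks. These are counts out of 86 probe sets, not 137, so they are not like for like with the main counts. At 2-fold, week 2 had 2 higher and 1 lower, week 4 0 and 1, and week 10 6 and 3. After loess on brightness 5 were lower at week 2. With a floor for each array, chosen after seeing the data, 5 were higher at week 2 and 11 lower at week 4. The cause of these moves was not tested. Of the named genes, Adamts10 had a mean of -0.049 and Loxl1 of -0.0059 without week 10, against 0.53 and 0.40 with it. Means of other named genes also lay on both sides of 0 among the alternatives. Examples are Timp1 (-0.26 to 0.31), Timp4 (-0.16 to 0.61), Mmp9 (-0.17 to 0.44) and Dcn (-0.34 to 0.25). Those of Col3a1 (0.53 to 0.86) and Ccn2 (-0.98 to -0.66) kept 1 sign. The other 44 recomputed counts, those of limma included, stayed within 1.5 times. Signals near the floor limit most members, and differences there are bounds.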

Other observations

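The larger array of week 4 holds 59 further probe sets of 40 genes that match the naming rule, 17 of them genes with no probe set among the members. Of these 59, 56 lay at the floor on both arrays and 2 above it on both. Adamtsl2, a microfibril-associated protein, had 224 on the high-fat and 313 on the control array, a log2 difference of -0.48. Col27a1, a fibrillar collagen of cartilage, had 262 and 231, a difference of 0.19. None of the 59 was at least 1.5-fold different, and with 1 array per diet there is no test.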
